A study of Homo sapiens with 12 samples.

Results

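The comparison is between polysome-associated RNA of A375 cells given interferon-gamma (IFNg) for 24 h and silvestrol for 2 h, and polysome-associated RNA of A375 cells given IFNg for 24 h alone. A375 is an established human melanoma cell line. The members are 4 of the 12 arrays of the series, 2 in each group, taken by their titles. The other 8 arrays hold polysomal RNA of cells given DMSO for 2 h, and total RNA of cells under the same 3 treatments. They are used for levels given side by side and for the estimate of the spread. No group received silvestrol without IFNg, and no vehicle is named for the cells given IFNg. Nothing in the labels says whether the 2 arrays of a group come from separate cultures, so p-values measure only the spread between these samples, which may be technical.

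Silvestrol is a plant compound of the rocaglate class that clamps the RNA helicase eIF4A onto RNA. Together with the cap-binding protein eIF4E and the scaffold eIF4G, eIF4A forms eIF4F, which opens the leader of an mRNA so that the small ribosomal subunit can scan to the start codon. An mRNA under translation carries several ribosomes and sediments as a polysome, so its amount in polysomal RNA depends both on how much of it the cell holds and on how well it is loaded. IFNg signals through the kinases JAK1 and JAK2, induces the transcription factor IRF1, and raises antigen presentation genes and the checkpoint ligand PD-L1, the product of CD274. The question the arrays address is which transcripts gained or lost in the polysomal RNA of IFNg-treated cells when silvestrol was present.

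The deposited data hold 1 intensity for each of 65535 transcript clusters, groups of probes that the maker assigns to one transcribed locus. Every gene named below lies on one of chromosomes 1 to 9. Counts of measured genes and shares of clusters hold for these clusters, and not for the whole genome. Values below are log2 intensities, and a change is the mean of the 2 IFNg plus silvestrol arrays minus the mean of the 2 IFNg arrays. Clusters whose log2 intensity averaged 7 or more across the 12 arrays are called bright here, and 7808 of them (11.9%) were. A cluster was called changed at an adjusted p below 0.05 in limma, with the Benjamini-Hochberg adjustment over all 65535 clusters. Levels of different clusters are not compared with each other, since each cluster has its own probes. No statement of the amount of RNA per array was found in the sources used here, so an intensity is relative to the rest of its array. In RNA from a whole culture, fewer cells holding a transcript and less of it per cell cannot be told apart.

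The 2 polysomal IFNg arrays stood apart from the rest of the series. The mean intensity over clusters was 1614 and 1558 on the polysomal IFNg plus silvestrol arrays, against 1237 and 1347 on the polysomal IFNg arrays, and lay between 1469 and 1720 on the other 8 arrays. The median bright cluster had a log2 intensity of 9.75 and 9.75 with silvestrol and IFNg, against 9.44 and 9.52 with IFNg alone. Results are given both for the deposited values and after quantile normalization of the polysomal arrays, which gives each of them the same distribution of values. Replicate arrays correlated with r = 0.977 for IFNg plus silvestrol and 0.973 for IFNg over all clusters, where genes are not independent replicates. The melanocyte label held in part, with 6 of 11 listed markers measured. GPNMB, MITF, S100A1 and PAX3 were bright, PAX3 only just, with a mean log2 intensity of 7.01. MLANA and TYRP1, both pigment cell genes, were dim, at mean log2 intensities of 5.89 and 5.35. Of the markers of other cell types, the immune genes CD14 and PTPRC, the fibroblast genes COL1A2 and PDGFRB and the epithelial gene EPCAM were measured, none was bright and none was called in limma, with 3 of 7 such markers lower at an unadjusted p below 0.05 in a list that also holds CD8A and ALB.

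In the deposited values, 717 clusters (1.09%) rose and 197 (0.301%) fell in polysomal RNA with silvestrol. Among the bright clusters 533 (6.83%) rose and 155 (1.99%) fell. After quantile normalization of the polysomal arrays 474 clusters (0.723%) rose and 348 (0.531%) fell, and among the bright ones 314 (4.02%) rose and 285 (3.65%) fell. Rises thus outnumbered falls in the deposited values, and the bright clusters were close to evenly split once the arrays had the same distribution. The median change of the bright clusters was 0.24 in the deposited values and -0.02 after quantile normalization, and the 10th and 90th percentiles in the deposited values were -0.78 and 1.36. Of the 717 clusters that rose, 474 rose in both forms, and of the 197 that fell, 196 fell in both. In all 717 rises and all 197 falls the 2 groups of arrays did not overlap. Among the 7808 bright clusters, called or not, both silvestrol arrays lay above both IFNg arrays in 3243 and below them in 1621. Lack of overlap in a called gene below is thus no added support for its call.

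Single arrays moved these counts. With the fit repeated without IFNg replicate 1 or 2, 368 and 147 clusters rose and 141 and 33 fell. Without IFNg plus silvestrol replicate 1 or 2, 101 and 426 clusters rose and 20 and 94 fell. Fitting the 4 compared arrays without the other 8 gave 287 rises and 82 falls.

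In the deposited values the median change was 1.84 for the 717 rises and -1.8 for the 197 falls, and only the extremes reached further upward. More than 4-fold higher were 292 clusters, more than 8-fold 81 and more than 16-fold 30, up to a log2 change of 6.81. More than 4-fold lower were 72 clusters, more than 8-fold 9 and more than 16-fold 0, down to -3.83. In the deposited values the share of clusters that rose was 0.121% at a mean log2 value below 5 and 9.12% between 11 and 13. It was 8.19% between 13 and 15 and 10.8% at 15 or above. The share that fell was 0.0597% below 5, reached 4.47% between 13 and 15, and was 0.833% at 15 or above. The pattern among the brightest clusters depended on the scaling. After quantile normalization 76 of 1404 clusters rose between 11 and 13, 43 of 806 between 13 and 15, and 28 of 600 at 15 or above. Falls at 15 or above numbered 5 in the deposited values and 18 after quantile normalization. Of the clusters that rose, 436 had 1 gene symbol, 27 had several and 254 had none, and of those that fell 135 had 1, 3 had several and 59 had none. The plot of change against intensity shows the calls in both forms.

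**Figure D1:**
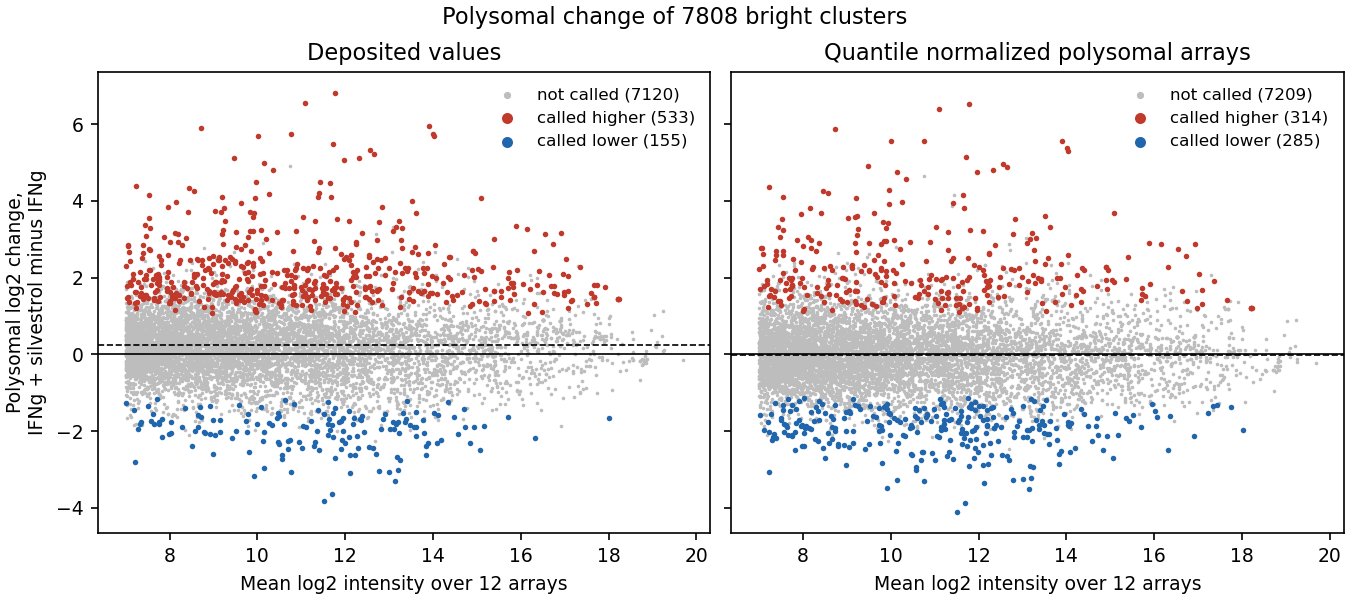
Polysomal log2 change (IFNg plus silvestrol minus IFNg, vertical axis) against the mean log2 intensity over the 12 arrays (horizontal axis) for the 7808 bright clusters, with deposited values on the left and quantile normalized polysomal arrays on the right. Red points were called higher, blue points lower, and the dashed line is the median, which lies at 0.24 on the left and -0.02 on the right, where the calls are 314 higher and 285 lower instead of 533 and 155.

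For genes, each symbol was represented by its brightest cluster, which gave 15188 genes, of which 5084 were bright. By that count 416 genes (2.74%) rose and 134 (0.882%) fell, and of the bright genes 344 (6.77%) rose and 130 (2.56%) fell. The median change of the bright genes was 0.2 in the deposited values and -0.05 after quantile normalization, and list medians below are to be read against these. After quantile normalization 252 genes (1.66%) rose and 250 (1.65%) fell. Counts of members called in a list are to be read against these shares. The shares hold for the adjusted p only. No share of all genes is given here for an unadjusted p below 0.05 or for the sign of a change. Counts of those 2 kinds below describe a list's members and are not compared with all genes.

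Immediate-early genes, which cells transcribe within minutes of a stimulus without new protein synthesis, held the 2 largest rises among the named genes, those of ID3 and JUN. Of 28 measured members, 23 were bright and 15 rose, and 15 rose after quantile normalization. At an unadjusted p below 0.05 in limma 20 were higher and 0 lower. The median change of the bright members was 2.84, and 2.69 after quantile normalization. It was 1.97 in total RNA. Of the 23 bright members 22 had a positive change, and HBEGF, a growth factor, had -0.45 (adjusted p = 0.815 in limma). Without IFNg replicate 1 or 2 there were 11 and 7 rises, and without IFNg plus silvestrol replicate 1 or 2 there were 6 and 14.

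JUN, a subunit of the transcription factor AP-1 encoded on chromosome 1, had polysomal log2 intensities of 13.81 and 12.37 with IFNg and silvestrol, against 8.58 and 7.35 with IFNg. The DMSO arrays had 8.25 and 7.51. Both silvestrol arrays lay well above the other 4, which overlapped. The change was 5.12 (SE 0.71, 34.8-fold, limma adjusted p = 0.00438), and 4.90 after quantile normalization. Its call ended without IFNg replicate 2 and without IFNg plus silvestrol replicate 1. In total RNA JUN had 13.37 and 12.42 with silvestrol, against 8.82 and 7.26 with IFNg, a change of 4.85 (adjusted p = 0.0342).

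NR4A2, an orphan nuclear receptor, had 10.80 and 10.34 with IFNg and silvestrol, against 6.91 and 5.58 with IFNg and 6.45 and 7.36 with DMSO. The silvestrol arrays did not overlap with the others, and the change was 4.33 (SE 0.41, adjusted p = 0.00045). Its change in total RNA was 4.04 (adjusted p = 0.0032). KLF10, a zinc finger factor induced by TGF-beta, had 16.18 and 16.07 with silvestrol, against 12.77 and 12.12 with IFNg, a change of 3.68 (SE 0.38, adjusted p = 0.000782) beside 3.50 in total RNA (adjusted p = 0.0043). The silvestrol arrays again lay above both IFNg arrays. CSRNP1, a cysteine- and serine-rich nuclear protein outside the list, had 11.81 and 10.86, against 8.09 and 6.88 with IFNg, and rose by 3.85 (adjusted p = 0.000903) beside 3.34 in total RNA (adjusted p = 0.0126).

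ID3, an inhibitor of basic helix-loop-helix factors, had the largest change of the named genes. Its polysomal levels were 16.22 and 14.80 with IFNg and silvestrol, against 10.83 and 9.54 with IFNg, and 12.28 and 13.16 with DMSO. The silvestrol arrays were the highest and the IFNg arrays the lowest of the 6, with no overlap. The change was 5.33 (SE 0.53, 40.1-fold, adjusted p = 0.000609). Its total RNA levels were 14.01 and 13.79 with silvestrol, against 11.63 and 11.72 with IFNg, a change of 2.23 that did not pass (adjusted p = 0.333). The difference of the polysomal and total changes, 3.10, did not pass either (adjusted p = 0.356).

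HES1, a repressor in the Notch pathway that is also outside the list, rose in both fractions. It had 16.37 and 15.92 with IFNg and silvestrol, against 12.41 and 11.88 with IFNg and 12.05 and 12.52 with DMSO. The DMSO and IFNg arrays overlapped and the silvestrol arrays lay above them. The change was 4.0 (SE 0.31, 16-fold, adjusted p = 0.000113), beside 3.80 in total RNA (adjusted p = 0.000718).

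Other list members that rose are named after their values were seen. EGR1, a zinc finger factor, had 18.29 and 18.21 with IFNg and silvestrol, against 15.65 and 14.34 with IFNg, and rose by 3.26 (adjusted p = 0.00343), beside 2.05 in total RNA (adjusted p = 0.215). Its relative EGR3 rose by 3.47, the matricellular genes CCN1 and CCN2 by 3.25 and 3.52, and the stress gene IER3 by 3.16. The stress-induced factor ATF3 rose by 2.94, the MAP kinase phosphatase DUSP1 by 2.84, ID2 by 2.92, TNFAIP3, an inhibitor of NF-kappaB signalling, by 2.53, and the pseudokinase TRIB1 by 2.03. In each of these the 2 silvestrol arrays lay above the 2 IFNg arrays, as they did in all 717 clusters that rose. CXCL8, a chemokine, and IL6, a cytokine, had changes of 0.21 (adjusted p = 0.937) and -0.21 (adjusted p = 0.873). In total RNA 4 list members rose, namely JUN, NR4A2, KLF10 and EGR3, against 0.145% of all genes higher and 0.0658% lower there. TIPARP, a mono-ADP-ribosyltransferase outside the list, rose in both of its clusters, by 4.27 (adjusted p = 0.00443) in the dimmer one and by 1.78 (adjusted p = 0.0213) in the brighter one. The call of the dimmer one ended without IFNg replicate 2 and without IFNg plus silvestrol replicate 1.

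Promoter windows of EGR1 and JUN are shown because both rose in polysomal RNA together with a rise or a higher level in total RNA. RefSeq windows of 250 bases upstream of the gene start, build GRCh38.p14, were searched on both strands for the CArG box, to which serum response factor binds, and for TGACG, the core of the site bound by CREB and ATF factors, whose reverse complement is CGTCA. Capitals mark matches.
EGR1 (chr5:138465229-138465478, + strand): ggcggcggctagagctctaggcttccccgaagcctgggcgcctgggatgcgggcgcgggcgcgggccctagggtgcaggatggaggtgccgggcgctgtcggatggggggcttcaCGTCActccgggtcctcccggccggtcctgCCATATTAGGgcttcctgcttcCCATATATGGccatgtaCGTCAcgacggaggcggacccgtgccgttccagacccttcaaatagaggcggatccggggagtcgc
JUN (chr1:58784048-58784297, - strand): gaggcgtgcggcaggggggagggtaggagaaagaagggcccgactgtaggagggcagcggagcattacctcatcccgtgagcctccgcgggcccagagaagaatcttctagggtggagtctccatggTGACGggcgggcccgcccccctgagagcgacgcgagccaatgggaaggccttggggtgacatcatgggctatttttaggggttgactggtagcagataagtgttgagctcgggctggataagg
The EGR1 window held CArG boxes at -105 to -96 and at -83 to -74, and TGACG at -135 to -131 and at -66 to -62, counted from the gene start. The JUN window held TGACG at -123 to -119. Of the 15 list members that rose, 8 had a window in the table, 1 of them (EGR1) with a CArG box and 4 (DUSP1, EGR1, ID3 and JUN) with TGACG. Over all 35116 windows the CArG box was in 407 (1.16%) and TGACG in 7451 (21.2%). These matches are letters in a window, and nothing about binding was measured.

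Replication-dependent histone genes, whose mRNAs end in a stem-loop in place of a poly(A) tail and are made in S phase, rose in large number. Of 57 measured genes 49 were bright and 30 rose, and 24 rose after quantile normalization. At an unadjusted p below 0.05 in limma 51 were higher and 0 lower. All 49 bright members had a positive change, with a median of 2.47, and 2.09 after quantile normalization. In total RNA the median was 0.65, no member was called in limma, and 9 were higher at an unadjusted p below 0.05. The median level of the bright members was 14.85 and 14.92 with IFNg and silvestrol, against 11.60 and 12.71 with IFNg, and 14.29 and 14.33 with DMSO. The IFNg arrays were thus the low ones, and the silvestrol arrays lay within 1 log2 unit of the DMSO arrays. The count of rises was 14 and 14 without IFNg replicate 1 or 2, and 4 and 18 without IFNg plus silvestrol replicate 1 or 2.

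Rises were called in each histone class. Of the bright genes, 8 of 8 H3 genes, 8 of 11 H2A genes, 11 of 16 H2B genes, 1 of 4 H1 linker histone genes and 2 of 10 H4 genes rose. Their median changes were 3.0, 1.75, 2.58, 3.0 and 2.07 in the same order. Many of these genes are near-identical in sequence and lie together on chromosome 6, so probes may not keep them apart. Chromosome 6 held 16.3% of the bright clusters that rose and 12.1% of all bright clusters.

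H3C1, an H3 gene on chromosome 6, had 13.58 and 12.42 with IFNg and silvestrol, against 7.96 and 8.44 with IFNg and 11.23 and 10.84 with DMSO. The groups did not overlap and the change was 4.80 (SE 0.65, 27.9-fold, adjusted p = 0.00378), a call that ended without IFNg plus silvestrol replicate 1. Its total RNA change was 1.01 (adjusted p = 1), and the difference between the fractions, 3.80, did not pass (adjusted p = 0.359). H2BC17, an H2B gene, had 14.63 and 14.62, against 10.75 and 10.82 with IFNg and 13.91 and 14.12 with DMSO, a change of 3.84 (adjusted p = 0.00965). Its replicates lay close together, but the pooled fit gave an SE of 0.61, and the call ended when any 1 of the 4 compared arrays was left out. H2AC15 rose by 3.69 (adjusted p = 0.00323), a call that ended without IFNg plus silvestrol replicate 1. For H4C3 the clusters disagreed: one had 15.11 and 14.77 with silvestrol, against 9.30 and 10.45 with IFNg, and rose by 5.07 (adjusted p = 0.00755), while the brighter one had 19.31 and 19.50, against 18.37 and 19.16, a change of 0.64 (adjusted p = 0.545). The H4C3 call ended without IFNg replicate 1 and without IFNg plus silvestrol replicate 1.

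Small non-coding RNA genes also rose. Families were grouped by symbol after their values were seen, and their copies share sequence, so members are not independent. Of 656 measured U6 spliceosomal RNA genes and copies, 58 were bright, and 66 rose, 27 of them bright, with 50 rises after quantile normalization. Without IFNg replicate 1 or 2 the U6 rises were 30 and 11, and without IFNg plus silvestrol replicate 1 or 2 they were 5 and 72. The bright U6 members had a median level of 10.70 and 9.75 with silvestrol, against 8.57 and 8.40 with IFNg, and 9.01 and 8.77 with DMSO, so the silvestrol arrays were the highest of the 6. Of 77 U1 spliceosomal RNA genes, variants and copies, 19 rose, and 16 after quantile normalization. Without IFNg replicate 1 or 2 they were 3 and 12, and without IFNg plus silvestrol replicate 1 or 2 they were 2 and 11. Of 248 copies of 5S ribosomal RNA 15 rose, and 5 after quantile normalization, with counts of 8, 0, 2 and 1 when those arrays were left out in the same order. Of 482 copies of 7SK and 7SL none was called in limma, 24 were higher and 11 lower at an unadjusted p below 0.05, with a bright median of 0.29 that was 0.04 after quantile normalization. The microRNA loci had a bright median of 0.02, and 1 of 597 rose.

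The 4 small RNAs among the 15 largest rises differed in their total RNA change. RNU6-180P, a U6 copy, had 13.13 and 12.35 with IFNg and silvestrol, against 9.07 and 8.51 with IFNg, a change of 3.95 (SE 0.46, adjusted p = 0.00158), beside -0.05 in total RNA, and the difference between the fractions, 4.0, did not pass (adjusted p = 0.115). The groups did not overlap on polysomal arrays. SNORD63, a box C/D small nucleolar RNA, had 12.32 and 12.52, against 9.52 and 7.91, a change of 3.71 (adjusted p = 0.0104), beside 0.20 in total RNA, and its call ended without IFNg replicate 2 and without either IFNg plus silvestrol array. RNU11, the U11 RNA of the minor spliceosome, had 12.38 and 11.30, against 8.23 and 8.30, a change of 3.58 (adjusted p = 0.0019), beside 1.81 in total RNA (adjusted p = 0.332). RMRP, the RNA of the ribonuclease MRP, is described with the fraction comparison.

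**Figure D2:**
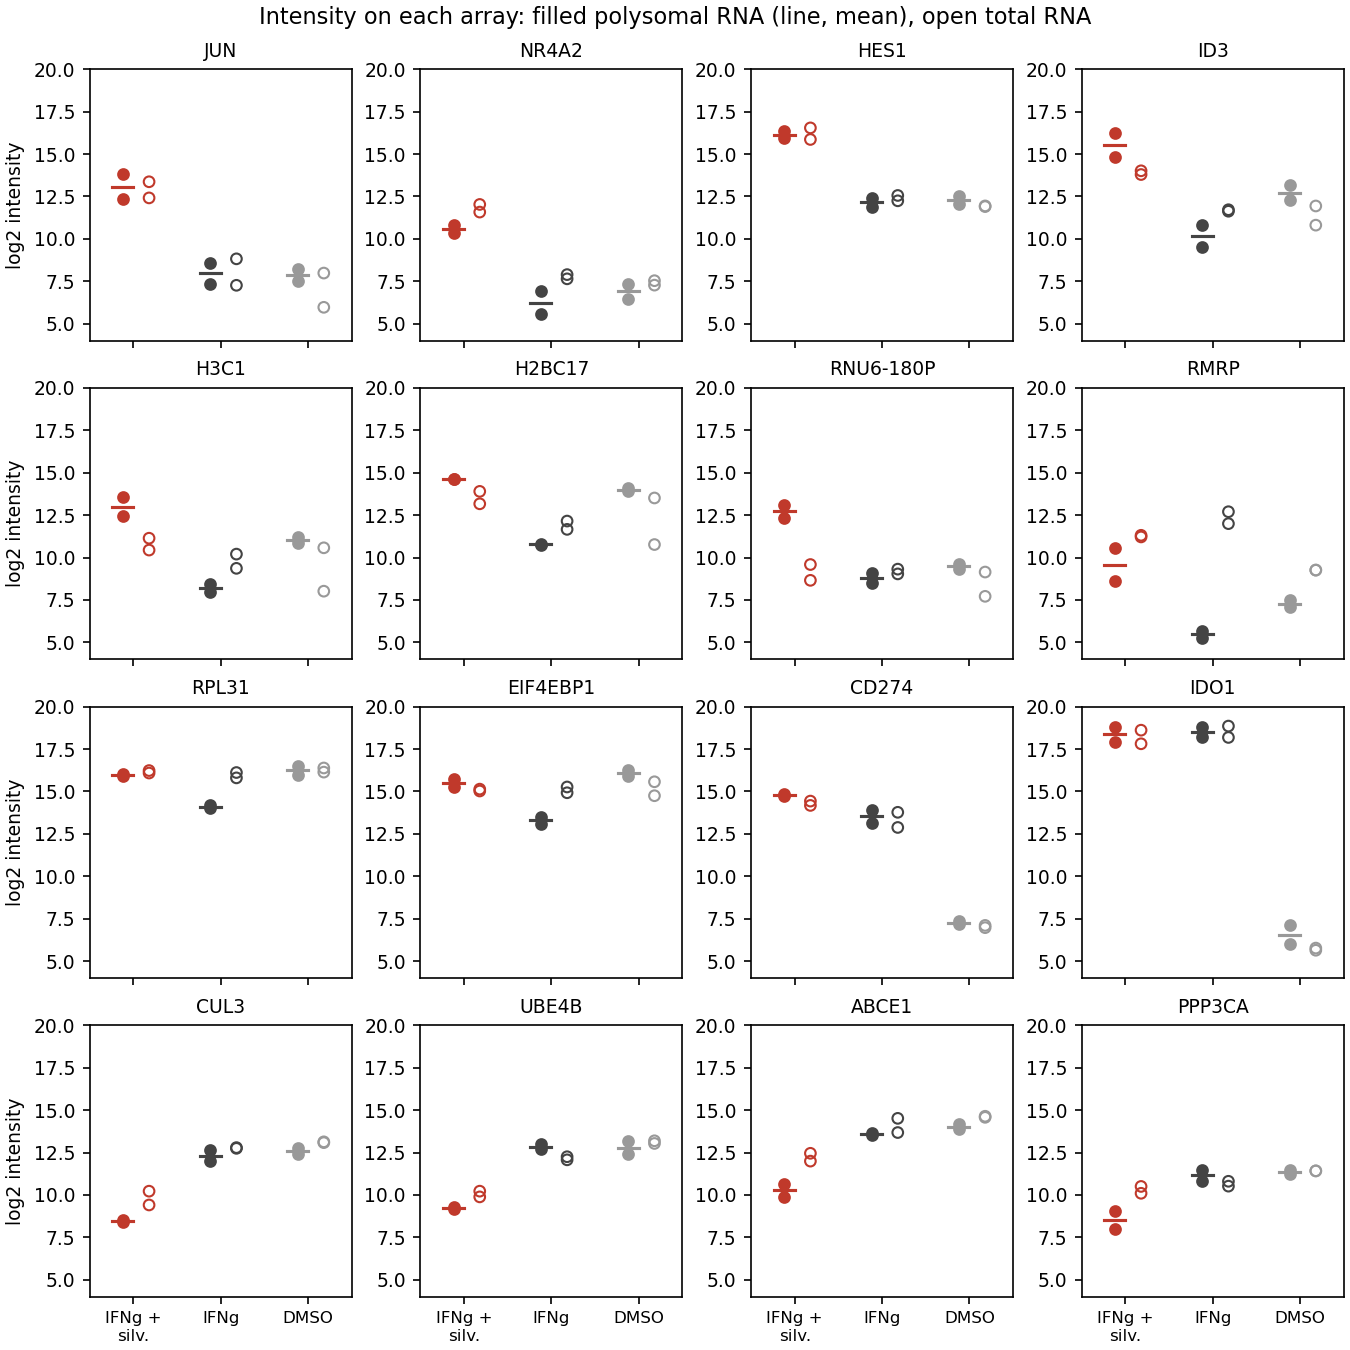
Log2 intensity of 16 named genes on each array (vertical axis), with IFNg plus silvestrol, IFNg and DMSO from left to right, filled points for polysomal RNA with a line at their mean, and open points for total RNA. JUN, NR4A2 and HES1 are high with silvestrol in both fractions, and RMRP is higher with silvestrol on polysomes and lower in total RNA. CUL3, UBE4B and ABCE1 are low with silvestrol in both fractions, though the total RNA change of ABCE1, -1.87, was not called. PPP3CA is low with silvestrol on polysomes, beside a change of -0.36 in total RNA.

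Genes of the translation and respiration machinery had smaller changes, mostly of positive sign. Cytosolic ribosomal protein mRNAs carry a 5' terminal oligopyrimidine (TOP) motif that links their translation to mTOR. Of 30 measured genes 29 were bright and 7 rose, and 2 rose after quantile normalization. At an unadjusted p below 0.05 in limma 22 were higher and 0 lower. Of the 29 bright members 28 had a positive change, with a median of 1.15, and 0.83 after quantile normalization, beside 0.09 in total RNA. Their median level was 16.72 and 16.80 with IFNg and silvestrol, against 15.05 and 15.67 with IFNg, and 16.57 and 16.69 with DMSO. The silvestrol arrays were near the DMSO arrays and the IFNg arrays were low. The rises numbered 3 and 0 without IFNg replicate 1 or 2, and 0 and 1 without IFNg plus silvestrol replicate 1 or 2.

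RPL31, a large subunit protein, had 16.03 and 15.90 with IFNg and silvestrol, against 14.20 and 14.02 with IFNg and 16 and 16.49 with DMSO. The change was 1.85 (SE 0.26, adjusted p = 0.00467), with no overlap, and its call ended without IFNg replicate 2 and without IFNg plus silvestrol replicate 1. Its total RNA change was 0.20 (adjusted p = 1). RPL29 rose by 2.26 (adjusted p = 0.0237), a call that ended when any 1 of the 4 arrays was left out, and RPL22L1 by 1.61 (adjusted p = 0.0222), with 1.15 and an adjusted p of 0.068 after quantile normalization. Of 6 other measured TOP mRNAs of translation none was called in limma and 1 was higher at an unadjusted p below 0.05, with a median of 0.31 that was -0.07 after quantile normalization. EEF1A1, the elongation factor that delivers tRNA, had 0.09 (adjusted p = 0.938), and NPM1, a nucleolar chaperone, 0.40 (adjusted p = 0.617).

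Nuclear genes of the mitochondrial respiratory chain, which encode subunits of its complexes and of ATP synthase, had a median change of 1.23 over 28 bright members of 30 measured, and 0.98 after quantile normalization. In total RNA it was -0.01. Of these genes 4 rose in either form, 22 were higher and 0 lower at an unadjusted p below 0.05 in limma, and 26 of the 28 bright ones had a positive change. The 4 were NDUFA2, NDUFB4 and NDUFS4, subunits of complex I, and ATP5ME, a subunit of ATP synthase. ATP5ME had 12.18 and 11.90 with IFNg and silvestrol, against 9.44 and 9.10 with IFNg and 11.33 and 12.65 with DMSO, a change of 2.77 (adjusted p = 0.0259). The silvestrol arrays lay within the range of the DMSO arrays. NDUFA2 changed by 2.25 (adjusted p = 0.0243), NDUFB4 by 1.85 (adjusted p = 0.0295) and NDUFS4 by 1.72 (adjusted p = 0.0194). The ATP5ME, NDUFA2 and NDUFB4 calls each ended when any 1 of the 4 compared arrays was left out. The number of rises was 0 and 2 without IFNg replicate 1 or 2 and 0 and 0 without IFNg plus silvestrol replicate 1 or 2, where the 2 were NDUFS4 and UQCRB, a subunit of complex III. It was 10 when all clusters of a gene were averaged.

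Of 20 listed genes of eIF4F and its partners, 8 were measured. Of 8 measured genes 1 rose, and 4 were higher and 0 lower at an unadjusted p below 0.05 in limma, with a bright median of 0.81, and 0.54 after quantile normalization. EIF4EBP1, which encodes the repressor 4E-BP1 that holds eIF4E away from eIF4G, had 15.74 and 15.28 with IFNg and silvestrol, against 13.52 and 13.07 with IFNg and 15.92 and 16.24 with DMSO. The groups with and without silvestrol did not overlap, and the DMSO arrays were the highest. The change was 2.21 (SE 0.32, 4.63-fold, adjusted p = 0.00521), and 1.94 after quantile normalization (adjusted p = 0.0115), beside -0.01 in total RNA. Its call ended without IFNg replicate 2 and without IFNg plus silvestrol replicate 1. EIF4E had a change of 0.85 (adjusted p = 0.4) and EIF4G1 of -0.48 (adjusted p = 0.727). EIF4A1 and EIF4A2 are not analysed here.

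Of 10 measured mRNAs known as eIF4A-dependent 1 rose, and 3 were higher and 0 lower at an unadjusted p below 0.05 in limma. All 8 bright members had a positive change, with a median of 0.54, and 0.28 after quantile normalization, beside 0.65 in total RNA. The medians of all bright genes on polysomes were 0.2 and -0.05. In 3 of the 8 both silvestrol arrays lay above both IFNg arrays, against 3243 of the 7808 bright clusters. MCL1, an anti-apoptotic member of the BCL2 family, had 17.17 and 17.39 with IFNg and silvestrol, against 15.47 and 15.12 with IFNg and 14.28 and 14.61 with DMSO. The silvestrol arrays were the highest of the 6 and the change was 1.98 (SE 0.27, 3.95-fold, adjusted p = 0.00373), and 1.57 after quantile normalization (adjusted p = 0.0168). Its total RNA change was 1.40 (adjusted p = 0.14). MYC, the growth-promoting transcription factor, had 10.61 and 10.41, against 8.79 and 9.31 with IFNg and 12.14 and 11.15 with DMSO, a change of 1.46 that did not pass (adjusted p = 0.178). CCND3, a G1 cyclin, had a change of 1.26 (adjusted p = 0.123), VEGFA, an angiogenic factor, 0.44 (adjusted p = 0.772) and BRD2, a bromodomain protein, 0.14 (adjusted p = 0.912).

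Interferon-induced mRNAs were higher on polysomes in both IFNg groups than with DMSO. Of 32 measured genes, 27 of them bright, 1 rose, and after quantile normalization 1 rose and 1 fell. Of all genes 2.74% rose and 0.882% fell in the deposited values, so these counts are not read as a trait of the list. At an unadjusted p below 0.05 in limma 4 were higher and 4 lower. Their bright median change was -0.32, and -0.60 after quantile normalization, beside 0.17 in total RNA. The median level of the bright members was 12.76 and 13 with IFNg and silvestrol, against 13.14 and 12.95 with IFNg, and 7.92 and 7.90 with DMSO. The silvestrol and IFNg arrays overlapped. In some members same-numbered arrays moved together, and the unpaired fit counts such a shared shift as spread. GBP5, for example, had 8.47 and 10.86 with silvestrol, against 8.61 and 11.36 with IFNg (SE 0.92). IDO1, the tryptophan-degrading enzyme, had 17.90 and 18.82, against 18.23 and 18.83 with IFNg, and 7.11 and 5.98 with DMSO, a change of -0.17 (SE 0.44, adjusted p = 0.937). GBP1, an interferon-induced GTPase, had a change of -0.71 (adjusted p = 0.364) and CXCL10, a T cell chemokine, of 1.30 (adjusted p = 0.34).

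Single genes of this list and of IFNg signalling had the following values. ISG15, a ubiquitin-like modifier, had 9.78 and 9.94 with IFNg and silvestrol, against 7.96 and 7.74 with IFNg and 6.26 and 6.56 with DMSO. The 3 groups did not overlap, and the change was 2.01 (SE 0.36, adjusted p = 0.0174), a call that ended when any 1 of the 4 compared arrays was left out. GBP2 had 15.37 and 15.87 with silvestrol, against 16.97 and 16.68 with IFNg, a change of -1.20 that did not pass in the deposited values (adjusted p = 0.0627) and was called lower, at -1.54, after quantile normalization (adjusted p = 0.0283). JAK1, the receptor-bound kinase, was alike in this: its change was -1.27 (adjusted p = 0.0954), and -1.54 after quantile normalization (adjusted p = 0.0496). JAK2 had a change of -0.32 (adjusted p = 0.771).

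IRF1, a transcription factor induced by IFNg, had 16.47 and 16.35 with IFNg and silvestrol, against 15.15 and 14.93 with IFNg and 6.04 and 5.79 with DMSO. The groups did not overlap and the change was 1.37 (SE 0.28, adjusted p = 0.0326). The call depended on the scaling, since after quantile normalization the change was 0.99 (adjusted p = 0.148), and it ended in 8 of the 13 alternatives, among them each fit without 1 of the 4 compared arrays. Its total RNA change was 1.48 (adjusted p = 0.146). Of the 5 measured genes of IFNg signalling IRF1 was the 1 that rose in the deposited values.

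Among checkpoint ligands 9 genes were measured, 3 were bright, and none was called in limma. At an unadjusted p below 0.05, 3 were higher and 1 lower. CD274 had 14.76 and 14.87 with IFNg and silvestrol, against 13.90 and 13.17 with IFNg and 7.17 and 7.37 with DMSO. The silvestrol arrays lay above the IFNg arrays and both far above DMSO, and the change of 1.28 (SE 0.33, 2.43-fold) did not pass (adjusted p = 0.0863), with 0.99 after quantile normalization (adjusted p = 0.225). In total RNA the change was 0.98 (adjusted p = 0.799). CD47, a signal against phagocytosis, had -0.38 (adjusted p = 0.853), and TNFRSF14, a ligand of BTLA, 0.96 (adjusted p = 0.239).

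Of 25 measured antigen presentation genes none was called in limma in either form, and 3 were higher and 2 lower at an unadjusted p below 0.05. Their bright median was 0.21, with the opposite sign, -0.14, after quantile normalization. The median level was 16.25 and 16.23 with IFNg and silvestrol, against 15.81 and 16 with IFNg, and 11.44 and 12.16 with DMSO. TAP1, a subunit of the peptide transporter, had 16.95 and 16.62, against 16.64 and 16.59 with IFNg, a change of 0.18 (adjusted p = 0.868) that was -0.32 after quantile normalization. HLA-DRA, a class II chain, had -0.06 (adjusted p = 0.982), and HLA-B, a class I chain, 1.22 (adjusted p = 0.138).

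**Figure D3:**
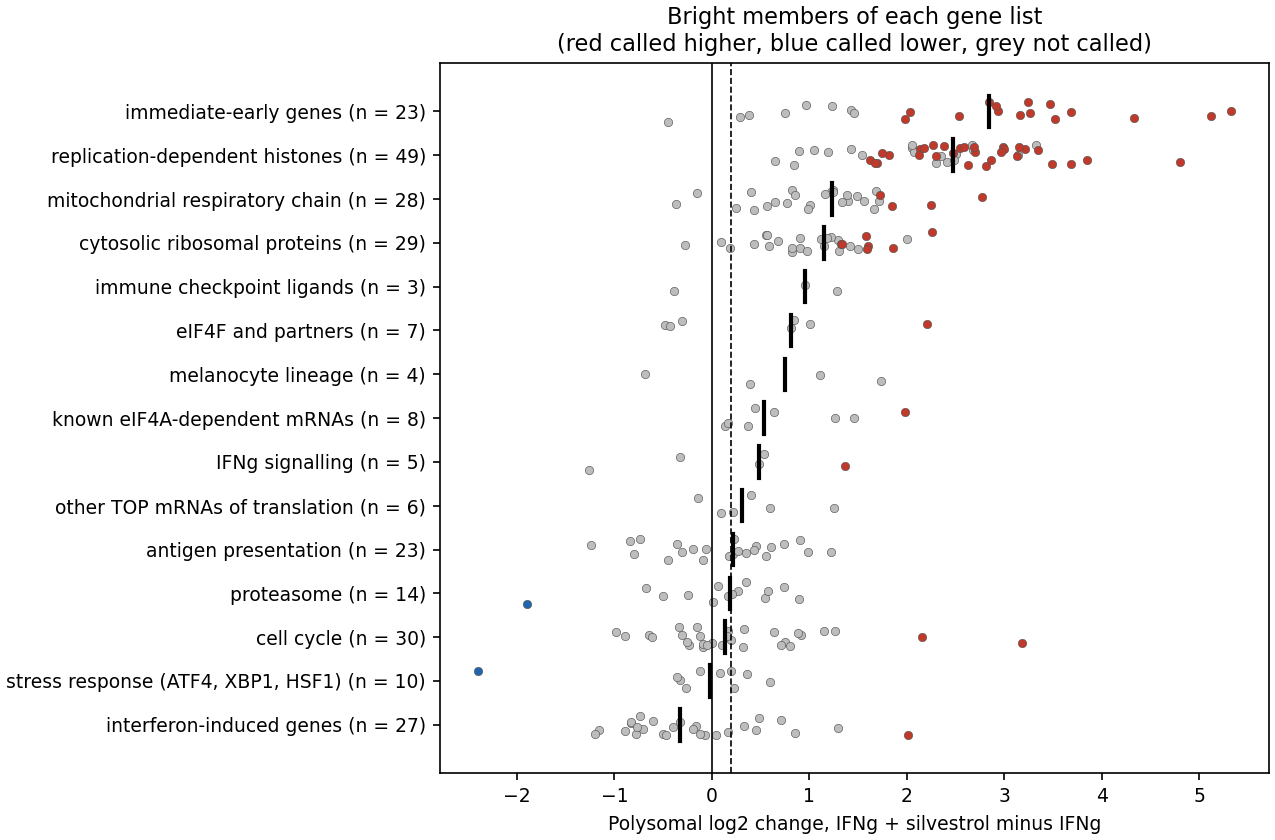
Polysomal log2 change (IFNg plus silvestrol minus IFNg, horizontal axis, deposited values) of the bright members of 15 gene lists, 1 point per gene and a thick bar at the list's median. Red points were called higher and blue points lower, and the dashed line at 0.2 is the median of all 5084 bright genes. The immediate-early (median 2.84) and histone (median 2.47) lists lie farthest to the right and the interferon-induced list (median -0.32) farthest to the left.

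Cell cycle, proteasome and stress lists stayed near the median of all genes. Of 30 cell cycle genes 2 rose, with a list median of 0.13 that was -0.12 after quantile normalization. CDKN1A, the cyclin-dependent kinase inhibitor p21, had 12.20 and 11.67 with IFNg and silvestrol, against 8.71 and 8.79 with IFNg and 10.09 and 11.15 with DMSO. Silvestrol arrays were the highest and IFNg arrays the lowest, and the change was 3.19 (SE 0.38, 9.11-fold, adjusted p = 0.00185), beside 1.91 in total RNA (adjusted p = 0.167). CKS2, a subunit of cyclin-dependent kinases, rose by 2.16 (adjusted p = 0.0259), a call that ended when any 1 of the 4 arrays was left out, so that 1 cell cycle gene rose in each such fit. Of 14 proteasome genes PSMD1, a regulatory subunit, fell by 1.89 (adjusted p = 0.0455), and its call ended in 9 of 13 alternatives, among them each fit without 1 array, in which 0 proteasome genes fell. The proteasome median was 0.18, and -0.07 after quantile normalization. Of 11 stress response genes VLDLR, a lipoprotein receptor, fell: it had 7.24 and 7.24, against 9.10 and 10.18 with IFNg, a change of -2.40 (adjusted p = 0.00378), beside -2.26 in total RNA (adjusted p = 0.0299).

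Among the 130 bright genes that fell, 129 were protein-coding. Of the 344 bright genes that rose 225 were protein-coding, 30 of them replication-dependent histones. The protein-coding share of all 5084 bright genes is not given here, so these counts are not read as a trait of either direction. CUL3, the scaffold of a family of ubiquitin ligases, fell the most. It had 8.54 and 8.40 with IFNg and silvestrol, against 12.62 and 11.98 with IFNg and 12.41 and 12.78 with DMSO. The IFNg and DMSO arrays overlapped and the silvestrol arrays lay far below them. The change was -3.83 (SE 0.31, 14.3-fold lower, adjusted p = 0.000134), and -4.11 after quantile normalization, beside -2.95 in total RNA (adjusted p = 0.00387). Another cullin, CUL1 of the SCF ligases, had 9.94 and 10.34, against 12.19 and 12.06 with IFNg, a change of -1.98 (adjusted p = 0.00624), beside -0.35 in total RNA (adjusted p = 1). Of the 4 cullin genes measured by symbol, a family chosen after values were seen, 3 were bright and these 2 fell, and CUL7 had a change of 1.12 (adjusted p = 0.179).

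UBE4B, a ubiquitin chain elongation factor, had 9.31 and 9.15 with IFNg and silvestrol, against 12.70 and 13.01 with IFNg and 13.16 and 12.40 with DMSO. Again the silvestrol arrays alone were low, and the change was -3.63 (SE 0.29, adjusted p = 0.000113), beside -2.11 in total RNA (adjusted p = 0.0251). ABCE1, an ATPase that splits ribosomes after termination, had 9.91 and 10.65, against 13.52 and 13.67 with IFNg and 14.18 and 13.88 with DMSO. Its change was -3.31 (SE 0.33, 9.91-fold lower, adjusted p = 0.000661), beside -1.87 in total RNA (adjusted p = 0.101). PPP3CA, the catalytic subunit of calcineurin, had 8.01 and 9.04, against 10.85 and 11.47 with IFNg and 11.49 and 11.24 with DMSO. The groups did not overlap, and its change of -2.63 (SE 0.34, adjusted p = 0.00323) stood beside -0.36 in total RNA (adjusted p = 1).

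The other 11 of the 15 largest falls were changes of -2.63 to -3.18. FASTKD1, a mitochondrial RNA-binding protein, fell by 3.18 (adjusted p = 0.00142). ROBO1, an axon guidance receptor, fell by 3.10 (adjusted p = 0.00701). The membrane protein TMEM184C had a change of -3.07 (adjusted p = 0.0201), the synaptic vesicle glycoprotein SV2A of -3.06 (adjusted p = 0.000695), and ADAM23, a membrane protein of the disintegrin family, of -3.05 (adjusted p = 0.00115). CLCN3, a chloride-proton exchanger, had -3.01 (adjusted p = 0.00157), and ADGRA3, an adhesion G protein-coupled receptor, -2.97 (adjusted p = 0.0308). PREPL, a serine hydrolase, had -2.69, EXT1, a heparan sulfate polymerase, -2.68, XPR1, a phosphate exporter, -2.63, and PCYOX1, a prenylcysteine oxidase, -2.63. In all 11 genes the silvestrol arrays lay below the IFNg arrays, which the rule that chose them required. Of the 11, SV2A, ADAM23, CLCN3 and PCYOX1 also fell in total RNA, with changes of -2.51, -2.17, -2.23 and -2.59 in that order. The calls of TMEM184C and EXT1 ended when any 1 of the 4 arrays was left out. The ADGRA3 call ended in each such fit except the one without IFNg plus silvestrol replicate 1. The ROBO1 call ended without IFNg replicate 1 and without IFNg plus silvestrol replicate 1, and those of XPR1 and PCYOX1 without IFNg replicate 2 and without IFNg plus silvestrol replicate 1.

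Families among the falls were grouped by symbol after their values were seen. Of 171 measured solute carriers, membrane transporters of ions and nutrients, 84 were bright and 9 fell, and 14 fell after quantile normalization. Their bright median was -0.56, with levels of 10.42 and 10.34 with IFNg and silvestrol, against 11.35 and 11.47 with IFNg, and 11.14 and 12.09 with DMSO. SLC7A11, the cystine importer, had 11.85 and 11.70, against 14.33 and 13.82 with IFNg, a change of -2.30 (adjusted p = 0.00348), beside -1.25 in total RNA (adjusted p = 0.387). SLC12A2, the sodium-potassium-chloride cotransporter, fell by 1.95 (adjusted p = 0.0216). The solute carriers that fell numbered 5 and 2 without IFNg replicate 1 or 2, and 1 and 4 without IFNg plus silvestrol replicate 1 or 2.

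Of 16 beta protocadherins, cell adhesion proteins encoded by a gene array on chromosome 5 with similar sequences, 7 fell, and 8 fell after quantile normalization. The bright median was -1.37. PCDHB9 fell by 1.75 (adjusted p = 0.00844) and PCDHB16 had a change of -1.68 (adjusted p = 0.0235). The count was 4 and 0 without IFNg replicate 1 or 2, and 0 and 3 without IFNg plus silvestrol replicate 1 or 2. Of 6 frizzled receptors for Wnt ligands 3 fell: FZD6 with a change of -1.90 (adjusted p = 0.0433), FZD5 with -1.76 (adjusted p = 0.0199) and FZD1 with -1.65 (adjusted p = 0.0149). For these receptors it was 0 and 1 without IFNg replicate 1 or 2, and 0 and 0 without IFNg plus silvestrol replicate 1 or 2. FZD1 also fell in total RNA, with a change of -1.83 (adjusted p = 0.0471).

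The same contrast in total RNA called 27 clusters higher (0.0412%) and 10 lower (0.0153%). Of the 717 clusters that rose on polysomes 20 also rose in total RNA, and of the 197 that fell 9 also fell. The total RNA change had the same sign in 73.2% of the rises and 87.3% of the falls, with medians of 0.29 and -0.97. The share of each sign over all clusters is not given here, and the median total RNA change of the bright clusters was 0.03. Of the 344 bright genes that rose on polysomes, 79 had a total RNA change of at least 1 upward, 71 one between 0.5 and 1, 189 one within 0.5 of 0, and 5 one of over 0.5 downward. Of the 130 bright genes that fell, 80 had a total RNA change of at least 1 downward, 32 one between 0.5 and 1 downward, and 18 one within 0.5 of 0. The polysomal and total RNA changes come from different arrays, and TARDBP, an RNA-binding protein, was among the 18, with -1.58 on polysomes (adjusted p = 0.0165) and -0.33 in total RNA (adjusted p = 1).

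**Figure D4:**
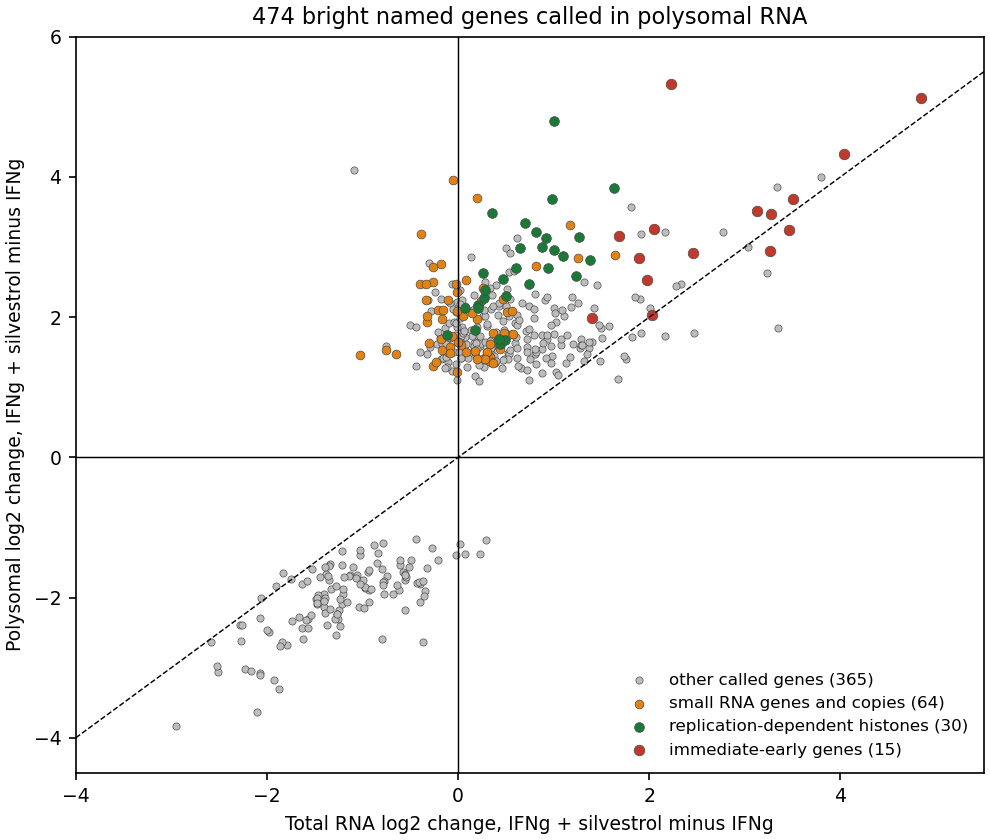
Polysomal log2 change (vertical axis) against total RNA log2 change (horizontal axis), both IFNg plus silvestrol minus IFNg, for the 474 bright named genes called in polysomal RNA, with the dashed line at equal change. Of the 15 immediate-early genes 13 lie above the line. All 30 histones do too, with total RNA changes of -0.12 to 1.63. So do all 64 small RNA genes and copies, 54 of them with a total RNA change within 0.5 of 0. Of the 365 other called genes, which hold all the falls, 228 lie above it. Genes were plotted because of their polysomal call, which favours a place above the line for rises, so these counts do not show a difference between fractions. The genes that fell lie mostly to the lower left.

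A test of the difference between the 2 changes, fitted across all clusters in limma, called 12 clusters, 0.0183% of those tested. All 12 had a larger change on polysomes, and 0 had a smaller one. At an unadjusted p below 0.05 there were 2646 and 1639. The 12 differences lay between 3.55 and 5.91, 6 of the clusters were on chromosome 6, and 11 have no gene symbol in the annotation used here. Their total RNA changes lay between -1.09 and 0.65 and none was called. The number was 0 when 16 was added to the intensities before log2. It was also 0 without IFNg plus silvestrol replicate 1 of either fraction, 1 and 2 without replicate 2 of the polysomal and of the total RNA, and 28 without polysomal IFNg replicate 1 and 7 without total RNA IFNg replicate 1.

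The named one was RMRP, which is needed for ribosomal RNA processing. It had 10.55 and 8.63 on polysomes with IFNg and silvestrol, against 5.29 and 5.69 with IFNg and 7.06 and 7.50 with DMSO. In total RNA it had 11.22 and 11.31 with silvestrol, against 12 and 12.70 with IFNg. The silvestrol arrays were thus above the IFNg arrays on polysomes and below them in total RNA. The polysomal change was 4.10 (SE 0.48, 17.1-fold, adjusted p = 0.00171), the total RNA change -1.09 (adjusted p = 1) and their difference 5.19 (SE 0.68, adjusted p = 0.0262).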

How the data were processed

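RNA was labelled with biotin and measured on 12 Affymetrix arrays, per the labels. The deposited table holds 1 linear intensity per transcript cluster and array, and which software and normalization the authors used for these intensity values is not given in the sources used here. No detection call accompanies them, so dim clusters are not told apart from background, and precision is limited by having 2 arrays per group: the median SE of a change was 0.31 (0.34 for bright clusters). Intensities were taken to log2 and fitted with limma 3.58.1 in R 4.3.3, with 1 mean for each of the 6 groups and a spread pooled over the 12 arrays (6 residual and 6.72 prior degrees of freedom). P-values were adjusted by Benjamini-Hochberg over all 65535 clusters. The fit was tested on simulated data. Summaries used Python 3.11.15, pandas 2.3.3 and numpy 2.4.6, and figures matplotlib 3.10.9.

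Gene symbols came from GEO's platform annotation, which lists 16549 of the clusters, 16130 with 1 symbol and 419 with several; 48986 are unnamed here, and 292 symbols were updated through RefSeq. Clusters with several symbols were left out of gene counts. Lists defined by symbol pattern (histones, ribosomal, respiratory chain and proteasome genes) were limited to protein-coding genes. The members and the 16 lists were chosen with earlier results of these data known, and 12 families were added after values were seen. Named genes were the 15 largest rises and 15 largest falls among bright clusters with 1 symbol, no overlap between the groups and the same call after quantile normalization, a set of interferon and eIF4F genes, and the 3 largest calls of each list; others are marked as chosen later. Replicate numbers did not count as pairs, since the labels name no shared source for same-numbered arrays. Alternatives were quantile normalization within the polysomal or over all arrays, median centring, the compared arrays alone, a block for the replicate number, an intensity trend with a robust prior, 16 added before log2, filters on intensity, the mean over all clusters of a gene and leaving out each array.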

Additional observations from a re-analysis of the deposited data

Results flagged for a closer look

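The change with silvestrol differed between polysomal and total RNA, by the test of the difference itself, in 12 clusters. For RMRP the polysomal change was larger than the total RNA change by 5.19 on the log2 scale (limma adjusted p = 0.0262): 10.55 and 8.63 on polysomes with IFNg and silvestrol against 5.29 and 5.69 with IFNg, and 11.22 and 11.31 in total RNA with IFNg and silvestrol against 12 and 12.70 with IFNg. In both fractions the 2 groups did not overlap. The cause of the difference between fractions was not tested.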

How the results depend on the processing

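Of 53 named clusters, 44 were called and 9 were not, and 13 alternatives gave 689 combinations. For the called clusters the call stood in 479 and was lost in 93, 72 of them by leaving out an array, and no direction reversed. For the uncalled ones 116 stayed uncalled and 1 gained a call, and the sign turned in 4, of TAP1 and IDO1. Over all clusters, 717 rises and 197 falls became 474 and 348 after quantile normalization of the polysomal arrays, 287 and 82 with the 4 compared arrays alone, and 101 to 426 and 20 to 141 without single arrays. Falls were 357 after quantile normalization over all arrays. Among bright clusters, 533 and 155 became 314 and 285 after quantile normalization of the polysomal arrays, 330 and 280 over all arrays, 236 and 77 with the 4 arrays alone, and 934 and 349 when only bright clusters were tested. Without single arrays they were 74 to 285 and 20 to 78. The median bright change of 0.24 became -0.02 after quantile normalization and 0.19 to 0.28 without single arrays. In total RNA 27 rises and 10 falls became 13 and 5 with only the 8 arrays compared, 14 and 4 with an intensity trend and robust prior, and 6 to 8 and 0 to 2 without single arrays. The total RNA falls were 4 with 16 added and 22 with bright clusters only. Of clusters with a larger polysomal change, 12 became 0 with 16 added, 20 with bright clusters only and 0 to 28 without single arrays, and those with a smaller one 0 to 1. For gene lists, quantile normalization left 0 rises in IFNg signalling and 2 of 7 in ribosomal proteins, and averaging the clusters of a gene gave 10 rises in the respiratory chain. Leaving out single arrays gave 0 to 0 rises in IFNg signalling and interferon-induced genes, 0 to 1 in eIF4F and partners, 0 to 3 in ribosomal proteins, 4 to 18 in histones, 6 to 14 in immediate-early genes, 1 to 1 in cell cycle genes, 0 to 2 in the respiratory chain and 0 to 0 falls in the proteasome. The cause of these moves was not tested, except that fewer clusters or arrays enter some fits. A block for the replicate number gave 763 rises and 231 falls and ended the PSMD1 call. Deviations of same-numbered silvestrol and IFNg arrays correlated with r = 0.074 over all and 0.303 over bright clusters on polysomes, and with 0.21 and 0.569 in total RNA. With 2 arrays per group and no shared source in the labels, the numbers were not taken as pairs. Of the 15 largest rises 15 were called under each alternative that kept all compared arrays, and 8 to 13 without single arrays. For the 15 largest falls these were 12 to 15 and 10 to 12. Dim clusters have no detection call, which limits what can be said of them.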
